A study of Mus musculus with 12 samples.

Results

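The dystrophin glycoprotein complex links the actin cytoskeleton of the muscle fibre to the extracellular matrix across the sarcolemma. The genes described here are *Dmd*, *Utrn*, *Dtna*, *Dag1*, *Sgca*, *Sgcb*, *Sgcd* and *Sgce*. These 8 genes were taken by name from the dystrophin, utrophin, dystrobrevin, dystroglycan and sarcoglycan genes, out of 55450 genes in the count table, and the rule itself uses no measured value. They do not cover these families in full: *Dtnb*, *Sgcz* and the syntrophin genes, for example, are not among them. All 8 passed the filter on low counts that left 19276 genes to test. RNA had been extracted from pieces of tibialis anterior (TA) muscle, a muscle of the lower leg that is rich in fast fibres, from wild-type (WT) mice of the 129Pas background. The mice were sampled at E18.5, an embryonic stage just before birth, at 2 weeks and at 7 weeks of age. The design gives 4 mice per age, which makes 12 libraries, and the labels name no transgene, deletion or treatment. The study followed muscle across postnatal maturation with an interest in splicing, whereas only counts summed over each gene are described here. The labels do not give the sex of the mice, so the X-linked *Dmd* was measured in mice of unknown sex.

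Dystrophin, the product of *Dmd*, binds actin with one end and β-dystroglycan with the other, and its loss causes Duchenne muscular dystrophy. Utrophin is its autosomal relative, found all along the sarcolemma of fetal and regenerating fibres and mainly at the neuromuscular and myotendinous junctions of adult fibres. *Dag1* encodes both dystroglycans, of which the outer, heavily glycosylated one binds laminin. The sarcoglycans form a subcomplex in the membrane that steadies this link, and loss of α-, β- or δ-sarcoglycan causes a limb-girdle muscular dystrophy. ε-Sarcoglycan, the product of *Sgce*, is a close relative of α-sarcoglycan with a wide tissue distribution. α-Dystrobrevin, the product of *Dtna*, joins the complex at its cytoplasmic side and brings in the syntrophins.

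The libraries held between 63018968 and 123449246 counted reads. The members had from 483 reads (*Sgce*) to 58173 reads (*Dag1*) in a library, a depth at which the sampling of reads adds little to the differences between mice. Levels are given as CPM, the share of counted reads scaled to a common total, after TMM scaling, which sets libraries to a common level for most genes. TMM factors were 1.62 to 1.77 at E18.5, 0.811 to 0.946 at 2 weeks and 0.667 to 0.699 at 7 weeks. The 20 most abundant genes took 13.7% to 16.1% of reads before birth and 33.2% to 37.8% after it. In these samples of whole muscle, fewer cells of a type and less RNA per cell cannot be told apart. The summed level of 6 muscle fibre markers (*Acta1*, *Ckm*, *Des*, *Ttn*, *Mb* and *Tnnt3*) ran from 8890 to 16727 CPM at E18.5, from 87980 to 120575 CPM at 2 weeks and from 100869 to 145012 CPM at 7 weeks, so the labelled tissue carried its defining markers at every age. The 6 fibroblast markers summed to a median of 9577, 4649 and 1199 CPM at the successive ages, the 6 satellite cell markers to 113.7, 63.7 and 51.4 CPM, and the 6 Schwann cell markers to 184, 245 and 119.6 CPM. No marker gene was at 0 in all libraries. The part of these cell types in the results below was not tested. The 3 comparisons between ages share libraries, so they are not independent of each other.

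Between E18.5 and 2 weeks, 5 of the 8 members changed: *Sgca*, *Sgcb* and *Sgcd* rose, and *Utrn* and *Sgce* fell. Over all tested genes 65.7% passed the same threshold, 31.5% upward and 34.2% downward, so a share of 5 in 8 is near the background. Between 2 and 7 weeks only *Sgce* passed among the members, downward, against 27.5% of all tested genes (13.5% upward and 13.9% downward). Between E18.5 and 7 weeks all 8 passed, 6 upward and 2 downward, against 71.4% of all tested genes (34.3% upward and 37.1% downward), and 5 passed with upper-quartile factors or a minimum of 10 counts per library. The threshold was an adjusted p of 0.05 in the quasi-likelihood test of edgeR, adjusted after Benjamini and Hochberg over 19276 genes, and fold changes compare the later with the earlier age. The members had a median log2 fold change of 0.35 to 2 weeks and 0.15 from 2 to 7 weeks, beside -0.09 and -0.03 over all tested genes.

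**Figure D1:**
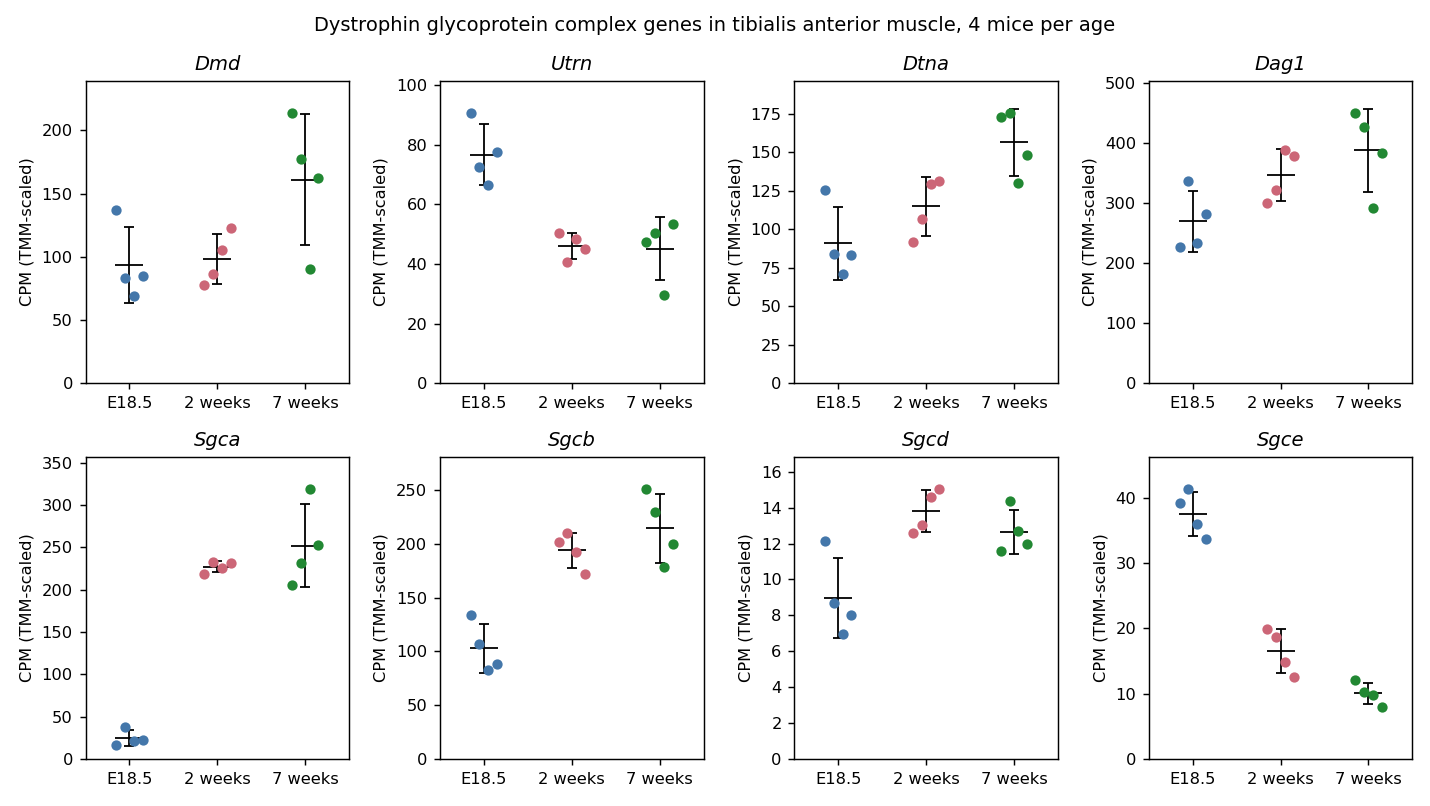
Level of each gene in each of the 12 libraries, as CPM after TMM scaling, by age (4 mice per age). Points are libraries, the horizontal bar is the mean and the whiskers are the SD. *Sgca* lay between 17.0 and 38.1 CPM at E18.5 and above 205 CPM in every later library, while the E18.5 and later libraries of *Dmd* overlapped.

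Dystrophin has several promoters, and the deposited counts add up the reads from all of them. RefSeq gives *Dmd* at chrX:82814664-85205050 on GRCm38.p6. The window from 250 bases before to 50 bases after the start of the full-length muscle transcript (chrX:82948620-82948919, plus strand) is shown for the muscle motifs it holds. Capitals mark, from left to right, a MEF2 motif, an E-box (CANNTG, searched on both strands), a CArG box and a pair of E-boxes, none of which overlap.

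Dmd muscle promoter: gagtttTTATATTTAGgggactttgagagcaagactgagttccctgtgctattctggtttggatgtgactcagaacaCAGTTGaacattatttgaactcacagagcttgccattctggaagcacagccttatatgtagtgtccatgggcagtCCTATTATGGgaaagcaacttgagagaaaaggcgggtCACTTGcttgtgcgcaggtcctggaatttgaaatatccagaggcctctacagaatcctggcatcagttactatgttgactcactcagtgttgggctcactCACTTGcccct

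A start near the 3′ end of the gene, in the region from which the short product Dp71 is made, has a window of the same size (chrX:85048045-85048344, plus strand). It is shown for contrast, because its reads enter the same gene count. Capitals mark GC boxes (GGGCGG, searched on both strands), of which there are 3 and the last 2 overlap, and no E-box, CArG box or MEF2 motif was found in it.

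Dmd short-product promoter: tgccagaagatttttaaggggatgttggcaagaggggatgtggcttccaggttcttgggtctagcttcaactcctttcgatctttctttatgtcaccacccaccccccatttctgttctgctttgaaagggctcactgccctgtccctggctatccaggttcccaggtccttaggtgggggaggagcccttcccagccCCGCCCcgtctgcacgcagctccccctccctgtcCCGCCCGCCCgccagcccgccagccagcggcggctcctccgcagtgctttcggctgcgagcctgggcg

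The GC content was 45.7% in the muscle window and 62.7% in the other. Of 32851 promoter windows of this length in the RefSeq set, 72.3% held an E-box, 1.63% a CArG box, 3.19% a MEF2 motif and 35.7% a GC box. A match is a description of the letters and not a site of binding. Which of the starts gave the *Dmd* reads was not tested.

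*Dmd* had 137, 83.6, 69.2 and 84.9 CPM in the E18.5 libraries of replicates 1 to 4. The 2-week libraries had 78.1, 86.6, 105 and 123.2 CPM, and the 7-week libraries 213, 178, 90.2 and 162 CPM. Replicate 1 stood above the other E18.5 libraries and replicate 3 below the other 7-week libraries, and the ages overlapped. From E18.5 to 2 weeks the log2 fold change was 0.07 (SE 0.26, adjusted p = 0.832), with a 95% interval from -0.50 to 0.63, and with the trend of each library over GC content removed it passed at 0.53 (adjusted p = 0.0217). Between 2 and 7 weeks it was 0.71 (SE 0.26, adjusted p = 0.0601), a 1.64-fold higher level that did not pass the threshold, although it did with DESeq2 (adjusted p = 0.0439) and with only the 8 libraries compared (adjusted p = 0.0492). This value moved with single 7-week libraries: without replicate 3 it was 0.91 (adjusted p = 0.0136), and without replicate 1 it was 0.55. Without E18.5 replicate 1 it stayed at 0.71, but its SE was 0.23 and it passed (adjusted p = 0.0336). From E18.5 to 7 weeks *Dmd* rose by 1.72-fold (log2 0.78, adjusted p = 0.0168), a call that was lost without E18.5 replicate 3 (adjusted p = 0.0541) or 7-week replicate 1 (adjusted p = 0.0546), with upper-quartile factors (0.53, adjusted p = 0.0834) and with a minimum of 10 counts per library (0.61, adjusted p = 0.0538).

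*Utrn*, at chr10:12382187-12869888 on GRCm38.p6, had 90.5, 72.4, 66.4 and 77.5 CPM at E18.5. At 2 weeks the libraries had 50.2, 40.6, 48.3 and 44.9 CPM and at 7 weeks 47.2, 50.2, 29.6 and 53.4 CPM. Each E18.5 library lay above every later library, and the 2 later ages overlapped. *Utrn* fell by 0.74 on the log2 scale from E18.5 to 2 weeks (SE 0.18, adjusted p = 0.00223), which was 1.67-fold lower. After 2 weeks the log2 difference was -0.03 (SE 0.18, adjusted p = 0.923), with an interval from -0.41 to 0.35. The fall to 2 weeks kept its direction and call under every scaling tried, and was smallest, at -0.40, with the trend over gene length removed.

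The relation of utrophin to dystrophin was also taken as a ratio of counts within each library. This ratio does not depend on a scaling factor common to all genes of a library, but it does depend on corrections for GC content or length. At E18.5 there were 0.659, 0.866, 0.96 and 0.912 *Utrn* reads per *Dmd* read. At 2 weeks the ratio was 0.644, 0.469, 0.459 and 0.365, and at 7 weeks 0.221, 0.283, 0.329 and 0.329. No 2-week library reached the lowest E18.5 ratio, and no 7-week library reached the lowest 2-week ratio. The mean log2 ratio went from -0.25 ± 0.24 (SD, n = 4) to -1.08 ± 0.34 and -1.80 ± 0.27. The fall was 1.77-fold in the first interval, 1.65-fold in the second and 2.93-fold over both. Each had p = 0.0286 in a two-sided exact permutation test over 70 regroupings, which is the smallest p that 4 against 4 allows, and an adjusted p of 0.0343 over the 6 ratio tests made (exact permutation tests). With the GC trends removed, the mean log2 ratio at E18.5 was 0.02. The falls were then 2.43-fold, 1.56-fold and 3.78-fold (exact permutation test, p = 0.0286 for each). Transcripts of both genes are long, and how reads from any stretches alike in these related genes were counted was not examined.

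*Dtna*, at chr18:23310006-23659719 on GRCm38.p6, had 125, 84.2, 70.8 and 83.2 CPM at E18.5. The libraries had 91.8, 106, 129 and 132 CPM at 2 weeks and 173, 175, 129.8 and 148 CPM at 7 weeks. Neighbouring ages overlapped, and every 7-week library lay above every E18.5 library. The log2 fold changes were 0.34 to 2 weeks (SE 0.19, adjusted p = 0.131) and 0.45 from 2 to 7 weeks (SE 0.19, adjusted p = 0.0962), and both passed without E18.5 replicate 1 (0.53, adjusted p = 0.0128, and 0.45, adjusted p = 0.0384). With GC trends removed the first passed at 0.60 (adjusted p = 0.00283). Over the whole span *Dtna* rose by 1.72-fold (log2 0.78, SE 0.19, adjusted p = 0.00213), and that call held without each library in turn.

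*Dag1*, the dystroglycan gene at chr9:108204861-108263977 on GRCm38.p6, had 227, 337, 234 and 282 CPM at E18.5. It had 299, 322, 389 and 379 CPM at 2 weeks and 449, 426, 292 and 384 CPM at 7 weeks, with overlap between all ages. The log2 fold change was 0.36 to 2 weeks (SE 0.18, adjusted p = 0.0901), or 0.49 without E18.5 replicate 2 (adjusted p = 0.0276). The later interval gave 0.16 (SE 0.18, adjusted p = 0.542). From E18.5 to 7 weeks *Dag1* rose by 1.44-fold (log2 0.52, adjusted p = 0.0183), a call lost without E18.5 replicate 3 (adjusted p = 0.0577) or 7-week replicate 1 (adjusted p = 0.0505). With GC trends removed the values were -0.23 to 2 weeks (adjusted p = 0.244) and 0.08 over the whole span (adjusted p = 0.688), whereas with length trends removed *Dag1* passed upward in both (0.44, adjusted p = 0.0182, and 0.55, adjusted p = 0.00435). The call over the whole span was also lost with upper-quartile factors (adjusted p = 0.16), a minimum of 10 counts per library (adjusted p = 0.0813), no filter (adjusted p = 0.0542) and only the 8 libraries compared (adjusted p = 0.0747).

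Among the sarcoglycans, *Sgca* showed a steep rise before 2 weeks and a plateau after it. RefSeq gives the gene at chr11:94962777-94976327 on GRCm38.p6. Its promoter window (chr11:94976278-94976577, minus strand) is shown because no other member rose as far. Capitals mark its 2 E-boxes, and no CArG box, MEF2 motif or GC box was found.

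Sgca promoter: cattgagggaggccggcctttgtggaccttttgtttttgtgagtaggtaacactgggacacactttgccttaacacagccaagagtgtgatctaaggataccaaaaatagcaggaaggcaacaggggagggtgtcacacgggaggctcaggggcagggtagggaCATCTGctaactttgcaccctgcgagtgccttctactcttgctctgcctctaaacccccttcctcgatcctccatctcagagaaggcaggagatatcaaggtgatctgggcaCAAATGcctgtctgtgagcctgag

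*Sgca* had 17.0, 38.1, 20.8 and 22.8 CPM at E18.5, with replicate 2 the highest. At 2 weeks the libraries lay close together at 219, 233, 225 and 232 CPM, and at 7 weeks they had 205, 232, 319 and 253 CPM. The lowest later library was above the highest E18.5 library in all 16 pairs of mice in each comparison with E18.5. The rise to 2 weeks was 9.20-fold (log2 3.20, SE 0.24, adjusted p = 1.94e-07). The log2 difference after 2 weeks was 0.15 (SE 0.22, adjusted p = 0.643), with an interval from -0.32 to 0.62. The change to 2 weeks exceeded the change from 2 to 7 weeks by 3.05 on the log2 scale (SE 0.37, adjusted p = 6.67e-05), where 38.4% of all tested genes differed between the intervals and *Sgca* was the only member to do so. The size moved with the correction for GC content. The GC trend at that of *Sgca* (56.5%) was -1.10 on the log2 scale in E18.5 replicate 1 and -0.15 to -0.58 in the other E18.5 libraries, against 0.34 to 0.49 in the 2-week libraries. With these trends removed the rise to 2 weeks was 2.26 (adjusted p = 2.59e-08), and from 2 to 7 weeks *Sgca* then rose by 0.38 on the log2 scale (adjusted p = 0.0272).

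*Sgcb* and *Sgcd* encode the β and δ forms, which assemble first in the subcomplex. *Sgcb*, at chr5:73632749-73647737 on GRCm38.p6, had 134, 107, 82.2 and 88.6 CPM at E18.5, 202, 210.1, 192 and 172 CPM at 2 weeks, and 251, 229.6, 178 and 199.6 CPM at 7 weeks. Its E18.5 libraries lay below all later ones, and the later ages overlapped. It rose by 1.89-fold to 2 weeks (log2 0.92, SE 0.17, adjusted p = 0.00038), and the log2 difference after 2 weeks was 0.15 (SE 0.17, adjusted p = 0.562). *Sgcd*, at chr11:46971077-47989451 on GRCm38.p6, was the scarcest member before birth, with 12.1, 8.71, 6.99 and 8.03 CPM. It had 12.6, 13.02, 14.6 and 15.0 CPM at 2 weeks and 11.6, 14.4, 12.7 and 11.95 CPM at 7 weeks. Here E18.5 replicate 1 came close to the 2-week libraries and lay inside the range of the 7-week libraries. *Sgcd* rose by 1.54-fold to 2 weeks (log2 0.62, SE 0.17, adjusted p = 0.00568), a call lost when the trend over gene length was removed (0.25, adjusted p = 0.246). After 2 weeks the log2 difference was -0.13 (SE 0.17, adjusted p = 0.619). From E18.5 to 7 weeks *Sgcd* rose by 1.41-fold (log2 0.50, adjusted p = 0.0184), and leaving out E18.5 replicate 3, E18.5 replicate 4 or 7-week replicate 2 raised the adjusted p to 0.0673, 0.0532 and 0.0539. That call was also lost with length trends removed (0.17, adjusted p = 0.418), upper-quartile factors (0.25, adjusted p = 0.21), a minimum of 10 counts per library (0.33, adjusted p = 0.105), no filter (0.44, adjusted p = 0.0641) and only the 8 libraries compared (0.41, adjusted p = 0.0876). The difference between the intervals was 0.77 for *Sgcb* (adjusted p = 0.051) and 0.75 for *Sgcd* (adjusted p = 0.0572), and without E18.5 replicate 1 both passed, at 0.92 (adjusted p = 0.0121) and 0.93 (adjusted p = 0.00689). That of *Utrn* was -0.71 (adjusted p = 0.0838), or -0.86 without 7-week replicate 3 (adjusted p = 0.0107).

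*Sgce*, at chr6:4674350-4747204 on GRCm38.p6, was the only member to fall in both intervals. It had 39.2, 41.3, 36.0 and 33.6 CPM at E18.5, 19.9, 18.6, 14.8 and 12.6 CPM at 2 weeks, and 12.1, 10.2, 9.85 and 7.96 CPM at 7 weeks. The ages did not overlap, and the lowest 2-week library was just above the highest 7-week library. *Sgce* fell by 1.19 on the log2 scale to 2 weeks (SE 0.17, adjusted p = 4.47e-05) and by 0.72 from 2 to 7 weeks (SE 0.17, adjusted p = 0.00784), which were 2.28-fold and 1.64-fold lower. Over the whole span it was 3.75-fold lower (adjusted p = 4.72e-07). Both falls kept their direction and their call without each library in turn and under every scaling tried.

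**Figure D2:**
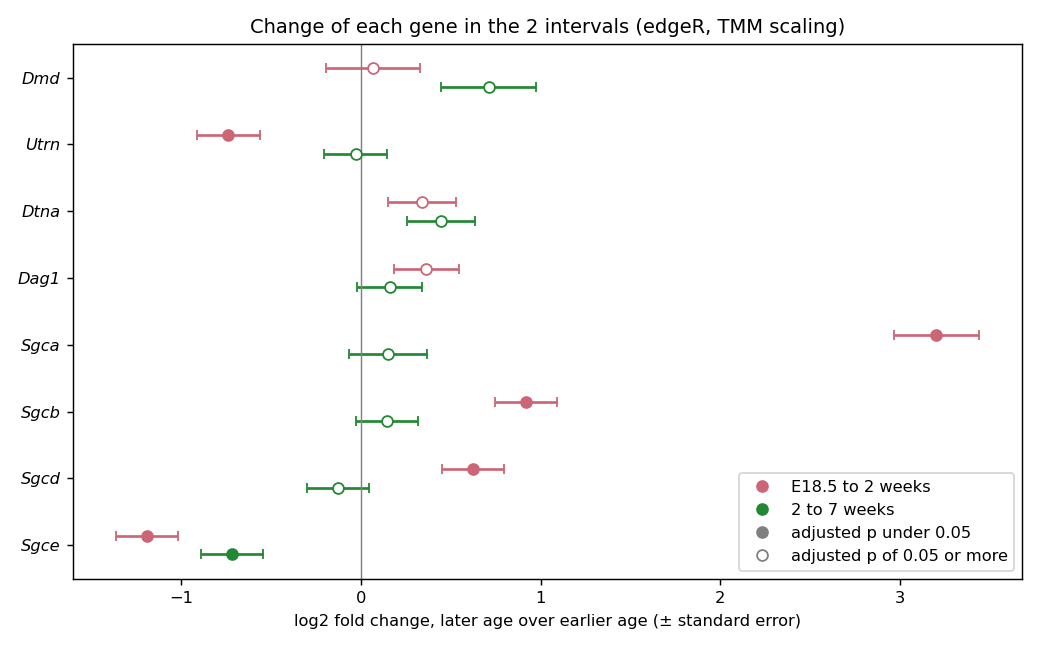
Log2 fold change of each gene from E18.5 to 2 weeks and from 2 to 7 weeks in the edgeR fit of the 12 libraries, with bars for the standard error. Filled points have an adjusted p under 0.05. *Sgca* stood furthest from 0 in the first interval (3.20), and only *Sgce* was filled in both intervals.

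The ratio of *Sgce* to *Sgca* reads, which is not corrected for gene length, fell between E18.5 and 2 weeks. At E18.5 there were 2.31, 1.08, 1.73 and 1.47 *Sgce* reads per *Sgca* read, and at 2 weeks 0.0908, 0.0800, 0.0657 and 0.0543. At 7 weeks the ratio was 0.0587, 0.0440, 0.0309 and 0.0315. The mean log2 ratio went from 0.67 ± 0.46 (SD, n = 4) at E18.5 to -3.81 ± 0.33 at 2 weeks and -4.65 ± 0.44 at 7 weeks. The ratio was 22.3-fold lower at 2 weeks and 39.9-fold lower at 7 weeks than at E18.5 (exact permutation test, two-sided p = 0.0286 and adjusted p = 0.0343 for each). In the later interval it was 1.79-fold lower, with 1 of 16 pairs of mice in the other direction (exact permutation test, p = 0.0571, adjusted p = 0.0571). With the GC trends removed, the mean log2 ratio at E18.5 was -0.14, so the excess of *Sgce* over *Sgca* reads before birth was not seen with this correction. The fall to 2 weeks was then 8.46-fold and that from 2 to 7 weeks 2.31-fold (exact permutation test, p = 0.0286 for both). The summed levels of fibroblast markers fell and those of fibre markers rose in the same libraries, as given above. Of the 6 fibroblast markers, 4 passed as lower to 2 weeks and 3 from 2 to 7 weeks, beside 34.2% and 13.9% of all tested genes. The median of *Col1a1* was higher at 2 weeks (1272 CPM) than at E18.5 (973 CPM). Of the 6 fibre markers, 6 passed as higher to 2 weeks and 2 from 2 to 7 weeks, beside 31.5% and 13.5%. The part of these markers in this ratio was not tested.

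**Figure D3:**
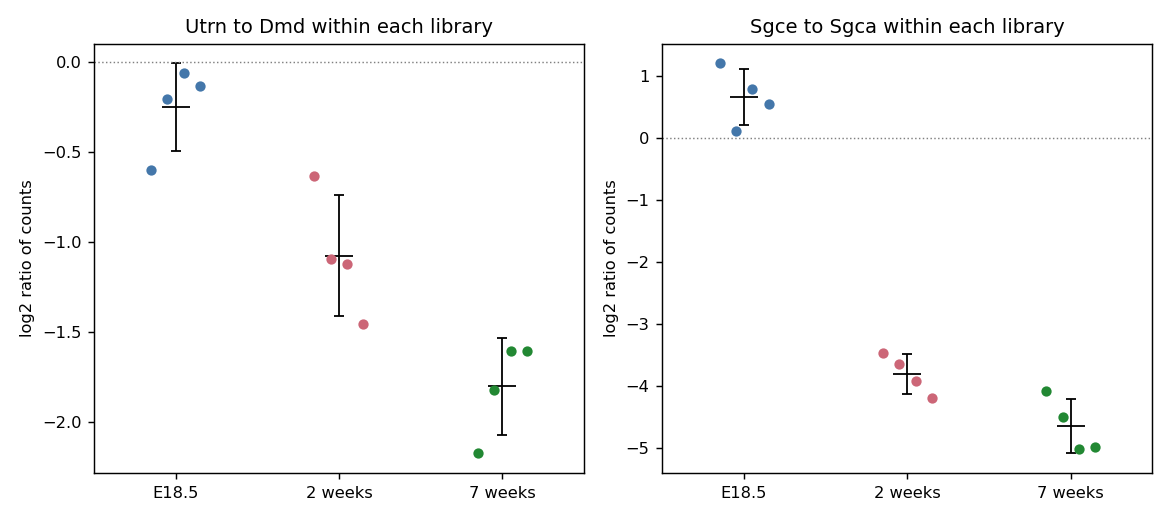
Log2 ratio of *Utrn* to *Dmd* counts and of *Sgce* to *Sgca* counts within each library, by age (4 mice per age). Points are libraries, the horizontal bar is the mean, the whiskers are the SD and the dotted line marks equal counts. Mean *Utrn* to *Dmd* log2 ratios were -0.25, -1.08 and -1.80, and mean *Sgce* to *Sgca* log2 ratios were 0.67, -3.81 and -4.65.

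Levels of different members were compared per kilobase, as CPM divided by the length of the merged exons of each gene in GENCODE vM39. At E18.5 *Dag1* stood at the top with 38.8 ± 7.3 CPM per kilobase (SD, n = 4), followed by *Sgcb* with 19.6 ± 4.39 and *Sgca* with 7.53 ± 2.83. *Dtna* (4.34 ± 1.13), *Utrn* (4.24 ± 0.567), *Dmd* (3.90 ± 1.25) and *Sgce* (2.74 ± 0.25) came next, and *Sgcd* (0.754 ± 0.188) was at the bottom. From *Sgca* down to *Sgce*, each neighbour in this order overlapped with the next. At 2 weeks *Sgca* led with 69.3 ± 2.0 CPM per kilobase, above *Dag1* (49.9 ± 6.24) and *Sgcb* (36.9 ± 3.12) without overlap. *Dtna* (5.49 ± 0.913) and *Dmd* (4.09 ± 0.837) overlapped, as did *Sgce* (1.20 ± 0.247) and *Sgcd* (1.16 ± 0.0993), with *Utrn* (2.54 ± 0.234) between these pairs and apart from both. At 7 weeks *Sgca*, *Dag1* (55.7 ± 9.98) and *Sgcb* overlapped in turn, *Dmd* had 6.69 ± 2.15 and *Utrn* 2.49 ± 0.587 CPM per kilobase, and *Sgce* had dropped to the lowest rank. Dystrophin and utrophin thus overlapped per kilobase at E18.5 and stood apart at 2 and 7 weeks. Per kilobase of the longest coding transcript instead, *Sgce* ranked 5 at E18.5, ahead of *Dmd* (6) and *Utrn* (7). At 2 weeks *Utrn* ranked 8 on that length, below *Sgcd* (6) and *Sgce* (7). The top 4 members kept their ranks at E18.5, so the order of the lower ranks depended on the length used.

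The direction of several members depended on scaling. Scaled to the total count, the median of all tested genes moved to -1.02 (log2) in the first interval, -0.38 in the second and -1.36 over both, and 2552 genes were then called higher and 11917 lower in the first interval, against 6074 and 6594 with TMM. From 2 to 7 weeks the split was 948 higher and 5391 lower, against 2608 and 2687. On that scale *Sgca* still rose to 2 weeks, by 2.27, *Utrn* stood at -1.66 and *Sgce* at -2.10. *Sgcb* was level at 0.00085 (adjusted p = 0.997), and *Dmd*, *Dag1*, *Sgcd* and *Dtna* turned negative (-0.87, -0.57, -0.31 and -0.60). Of these *Dmd*, *Dag1* and *Dtna* passed as lower (adjusted p = 0.00616, 0.00886 and 0.00667), so 1 member was called higher and 5 lower to 2 weeks, in place of 3 and 2. Over the whole span *Dmd*, *Dag1*, *Sgcb*, *Sgcd* and *Dtna* also turned negative on that scale, at -0.48, -0.75, -0.21, -0.77 and -0.48, and *Dag1*, *Sgcd* and *Dtna* passed as lower (adjusted p = 0.00126, 0.00057 and 0.0199). There too 1 member was called higher and 5 lower, in place of 6 and 2. Relative to the median of all tested genes the values were much the same with TMM and the total count: 0.16 and 0.15 for *Dmd*, 3.29 with both for *Sgca*, 1.01 and 1.02 for *Sgcb*, 0.72 and 0.71 for *Sgcd*, -0.64 with both for *Utrn*, and -1.10 and -1.08 for *Sgce*. A change of scaling shifts every gene by nearly the same amount, so this agreement was fixed in advance and does not bear on the directions. The changes given for *Dmd*, *Dag1*, *Sgcb*, *Sgcd* and *Dtna* are to be read relative to the typical tested gene. With length trends removed, *Utrn* was level with that gene (-0.02 relative to the median).

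**Figure D4:**
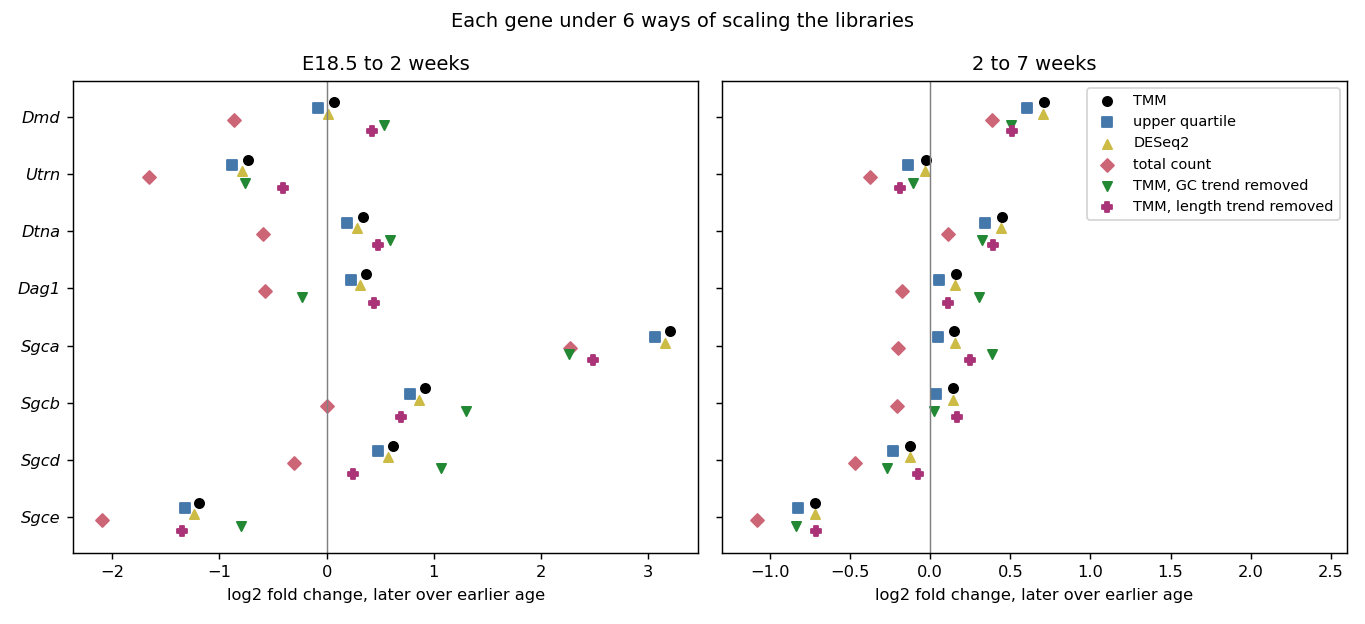
Log2 fold change of each gene in both intervals under 6 ways of scaling: TMM, upper quartile, DESeq2, total count, and TMM with the trend over GC content or gene length removed. In the first interval *Sgca* stayed to the right of 0 (2.26 to 3.20) and *Utrn* and *Sgce* to the left under all 6, whereas *Dmd*, *Dtna*, *Dag1* and *Sgcd* had values on both sides.

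A further 50 genes of the complex and its surroundings were examined in 4 lists. Of the 48 with enough reads to test, 35 changed to 2 weeks, 20 upward and 15 downward, a share of 72.9% beside 65.7% of all tested genes. From 2 to 7 weeks 18 changed, 10 upward and 8 downward, a share of 37.5% beside 27.5%. The median log2 fold change of the 48 was 0.20 to 2 weeks and 0.12 from 2 to 7 weeks. *Sgcz* (ζ-sarcoglycan) and *B4gat1*, a glucuronyltransferase that acts on dystroglycan, had at most 11 and 9 reads in any library and were not tested.

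Of the 10 tested core genes, 3 rose and 3 fell to 2 weeks, a share of 60% beside 65.7% of all tested genes. The syntrophins are adaptor proteins that dystrophin and dystrobrevin hold at the membrane. *Sntb1* (β1-syntrophin) had 92.9 to 154.6 CPM at E18.5 and 8.76 to 22.7 CPM at 2 weeks, a log2 fold change of -2.99 (adjusted p = 6.91e-06). *Sntb2* (β2-syntrophin) fell by 0.85 on the log2 scale (adjusted p = 0.00318). The libraries of these ages did not overlap for either gene. Neither passed after 2 weeks in the main fit, at -0.05 for *Sntb1* (adjusted p = 0.929) and -0.56 for *Sntb2* (adjusted p = 0.0651). *Sntb2* passed as lower with GC trends removed (-0.71, adjusted p = 0.00734), length trends removed (-0.72, adjusted p = 0.00393) and total-count scaling (-0.91, adjusted p = 0.00919). It also passed with upper-quartile factors, the replicate block, DESeq2 and a minimum of 10 counts per library (adjusted p = 0.0312, 0.0431, 0.0466 and 0.0483). It did not with no filter, TMM without the most abundant genes, or only the 8 libraries compared (adjusted p = 0.0815, 0.0655 and 0.0663).

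*Dtnb* (β-dystrobrevin) was low throughout, at 1.71 to 4.54 CPM, and fell by 0.82 to 2 weeks (adjusted p = 0.00246). *Cav3*, the caveolin of muscle, passed upward with 0.73 (adjusted p = 0.0233), a direction that turned to -0.20 with total-count scaling, -0.08 with GC trends removed and -0.13 with length trends removed, and a call that was lost without E18.5 replicate 1, 3 or 4 (adjusted p = 0.0632, 0.0608 and 0.0602). *Sspn* (sarcospan, a membrane partner of the sarcoglycans) had log2 fold changes of 0.13 and 0.24 in the 2 intervals (adjusted p = 0.56 and 0.355), which were -0.80 and -0.10 with total-count scaling. *Sntg1* and *Sntg2* (γ-syntrophins, best known from brain) stayed under 1 CPM in every library, and *Sntg2* fell by 1.121 from 2 to 7 weeks (adjusted p = 0.0194) on 9 to 72 reads per library, a call lost without 2-week replicate 2 (adjusted p = 0.0768) or 7-week replicate 4 (adjusted p = 0.0625). *Nos1*, the neuronal nitric oxide synthase that the complex holds at the sarcolemma, had 28.7, 27.1, 14.7 and 22.4 CPM at E18.5. At 2 weeks its libraries split into 12.2 and 11.01 CPM for replicates 1 and 2 and 96.4 and 66.1 CPM for replicates 3 and 4, and at 7 weeks they had 185, 185, 107 and 174 CPM. Its log2 fold change to 2 weeks was 0.9997 (SE 0.55, adjusted p = 0.124), and it passed without 2-week replicate 1 (1.34, adjusted p = 0.0313) or 2 (1.34, adjusted p = 0.0271). *Nos1* rose by 1.81 on the log2 scale from 2 to 7 weeks (SE 0.56, adjusted p = 0.0286), with no overlap between these ages, and leaving out 2-week replicate 1 or 2 or 7-week replicate 1, 2 or 4 raised the adjusted p to between 0.0553 and 0.065.

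**Figure D5:**
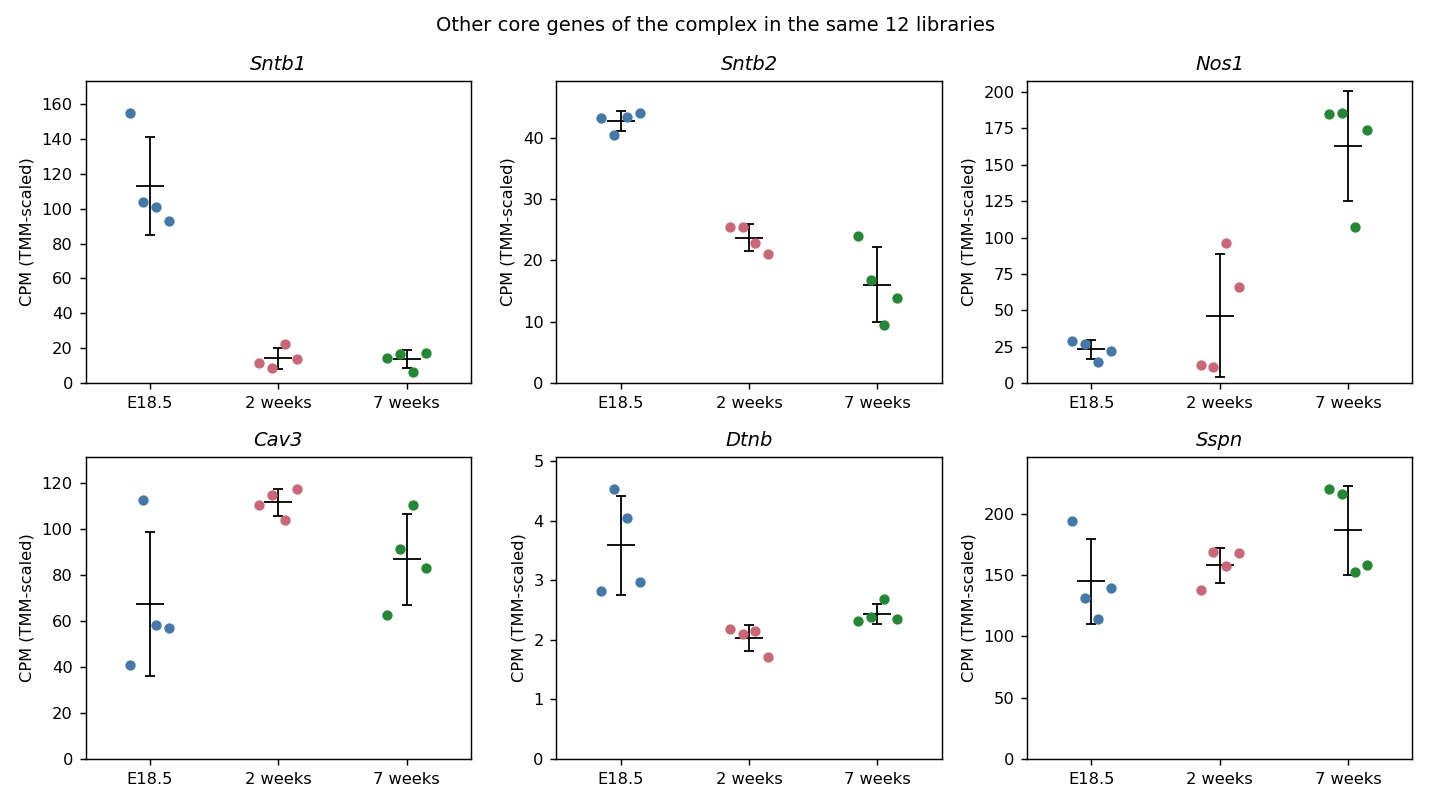
CPM after TMM scaling of 6 other core genes of the complex in each of the 12 libraries, by age (4 mice per age). Points are libraries, the horizontal bar is the mean and the whiskers are the SD. *Sntb1* fell from at least 92.9 CPM before birth to at most 22.7 CPM at 2 weeks, and the 2-week libraries of *Nos1* lay at both ends of a range from 11.01 to 96.4 CPM.

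The glycosylation list holds the enzymes that build the laminin-binding sugar of dystroglycan and the enzymes that supply its precursors. Of 17 tested, 7 rose and 4 fell to 2 weeks, and 4 rose and none fell from 2 to 7 weeks. These were shares of 64.7% and 23.5%, near the 65.7% and 27.5% of all tested genes. The tested genes of this list had a median of 0.22 and then 0.25 in log2 fold change, beside -0.09 and -0.03 over all tested genes.

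The 11 matrix ligands are laminins, perlecan, agrin and others that bind dystroglycan or the sarcoglycans. Of these, 4 rose and 5 fell to 2 weeks, a share of 81.8% beside 65.7% of all tested genes. From 2 to 7 weeks 6 fell and none rose, a share of 54.5% beside 27.5% (13.5% upward and 13.9% downward). *Lamb1*, a laminin β chain that is abundant in fetal tissue, had 242 to 306 CPM at E18.5, 101.3 to 174 CPM at 2 weeks and 37.2 to 84.9 CPM at 7 weeks. It fell by 0.89 (adjusted p = 0.00703) and then by 1.33 (adjusted p = 0.00218) on the log2 scale. *Lama1*, an embryonic laminin α chain, was scarce, with 54 to 176 reads per library at E18.5 and 2 to 5 at each later age, and passed downward to 2 weeks (adjusted p = 1.65e-05).

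Of the 10 cytoskeletal partners, 6 rose and 3 fell to 2 weeks, and 4 rose and 1 fell from 2 to 7 weeks. These were shares of 90% and 50%, beside 65.7% and 27.5% of all tested genes. *Synm*, encoding the intermediate filament protein synemin, had 18.2 to 38.3 CPM at E18.5, 211 to 440 CPM at 2 weeks and 841 to 1245 CPM at 7 weeks, with rises of 3.53 (adjusted p = 5.69e-07) and 1.65 (adjusted p = 0.000986) on the log2 scale. Both keratins named in this list had few reads after birth. *Krt8* passed downward in both intervals (adjusted p = 3.66e-06 and 0.00258) on 213 to 729 reads per library at E18.5, 8 to 28 at 2 weeks and 2 or 3 at 7 weeks. *Krt19* passed upward to 2 weeks (adjusted p = 0.00198) on 0 to 63 reads per library at E18.5 and 38 to 133 at 2 weeks. The 6 epidermis markers summed to a median of 17.8 CPM at E18.5, 12.3 at 2 weeks and 11.2 at 7 weeks. That sum hides unlike changes, and 4 of the 6 passed as lower to 2 weeks, beside 34.2% of all tested genes. Medians of *Krt5*, *Krt14*, *Krt1* and *Dsp* went from 0.65, 0.24, 1.97 and 2.06 CPM at E18.5 to 0.0052, 0.015, 0.0052 and 0.11 CPM at 2 weeks. Those of *Trp63* and *Krt10* went from 6.28 and 2.71 CPM to 8.88 and 3.53 CPM. The part of epidermis in the keratin values was not tested.

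Among 8947 well expressed genes (log2 CPM averaging 3 or more), the pattern most like each member over the 12 libraries was found as the smallest root mean square difference of log2 CPM, each gene being centred on its own mean. For *Sgca* these were *Tnnc2* (0.0772) and *Tnni2* (0.0854), the troponin C and troponin I genes of fast fibres. For *Sgcb* it was *Dusp3* (0.0943), and for *Dtna* *Larp4b* (0.0888) and *Cnih4* (0.108). *Dag1* was closest to *Akap13* (0.105) and *Ercc4* (0.112), and *Sgce* to *Dtx4* (0.122) and *Pofut4* (0.130). *Acap2* (0.119) was among the 2 nearest to *Utrn*. The distances were largest for *Sgcd*, with *Plpp1* (0.1401) and *Tpd52* (0.167), and for *Dmd*, with *Msi2* (0.146). *Tnnc2* and *Tnni2* changed by 3.05 and 3.12 on the log2 scale to 2 weeks and by 0.26 and 0.33 after it, beside 3.20 and 0.15 for *Sgca*. The libraries share depth and GC trends, so the distances are a description only.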

How the data were processed

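The deposited values were raw counts of reads per Ensembl gene in 12 TA libraries (TruSeq Stranded mRNA, polyA selection, paired-end reads). The authors trimmed with cutadapt 1.10, mapped with STAR 2.5.3a and, per the labels, counted with HTSeq 0.6.1p1. Those notes name mm10 and the methods text GRCm39, and the annotation and strand setting of the counting are not given in the sources used here. If strand was ignored, antisense RNAs sharing up to 1.19% of the exons of *Dtna*, 0.424% of *Dmd* and 0.343% of *Utrn* would add reads. Symbols, exon lengths and GC content came from GENCODE vM39, which held 51477 of 55450 identifiers, and GC content was known for 98.7% of tested genes. Positions and promoters came from RefSeq on GRCm38.p6, where promoter entries of 6 of the 8 members were searched.

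The counts were scaled with TMM and tested in a single fit of age over 12 libraries with edgeR 4.0.16 (quasi-likelihood test, filterByExpr, Benjamini-Hochberg adjustment over 19276 genes, 36174 removed, R 4.3.3). The authors' Cuffdiff comparison of transcripts was replaced by this count test. The series' design states 4 mice per age, and no pair of libraries of an age agreed within sampling noise. Ratios within libraries were compared by exact permutation tests. The script was tested on simulated data. Alternatives were total-count and upper-quartile scaling, TMM without the 20 most abundant and the 37 mitochondrial genes, no filter on low counts, a minimum of 10 counts per library, a replicate block, DESeq2 1.42.0, removal of GC or length trends (loess span 0.3), only the 8 libraries compared, and leaving out each library. The members, lists, tests and alternatives were chosen with earlier results of these data known. Named beside the members are all core genes, the 3 largest rises and 3 largest falls past the threshold over the 4 lists in each interval, up to 2 genes per member of the most similar pattern, and marker genes. Some genes that this rule names are not reported here. Marker lists of 6 genes each also covered endothelium (median summed level 416, 905 and 643 CPM at the successive ages), smooth muscle and pericytes (422, 1226 and 985 CPM), red blood cells (618, 312 and 120.7 CPM) and cartilage (26.9, 14.6 and 7.86 CPM). Figures were drawn with matplotlib 3.10.9.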

Additional observations from a re-analysis of the deposited data

Results flagged for a closer look

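The change of *Sgca* to 2 weeks exceeded its change from 2 to 7 weeks by 3.05 on the log2 scale (95% interval 2.27 to 3.84, edgeR adjusted p = 6.67e-05), and it was singled out because the test of the difference between the 2 intervals passed. The 2 changes share the 2-week libraries. Across the alternatives the difference ran from 1.88 with GC trends removed to 3.11 with the replicate block, and from 2.91 to 3.34 when a library was left out, and it passed each time. No library stood apart from its age in the 30 sets of 4 values examined by Dixon's test, where chance gives 1.5.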

How the results depend on the processing

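The falls of *Utrn* to 2 weeks and of *Sgce* in both intervals and the rise of *Sgca* to 2 weeks kept direction and call under all alternatives run. With total-count scaling the log2 fold change to 2 weeks became -0.87 for *Dmd*, -0.57 for *Dag1*, -0.31 for *Sgcd*, -0.60 for *Dtna* and -0.20 for *Cav3*. From 2 to 7 weeks it became -0.18 for *Dag1*, -0.20 for *Sgca* and -0.21 for *Sgcb*, and from E18.5 to 7 weeks -0.48 for *Dmd*, -0.75 for *Dag1*, -0.21 for *Sgcb*, -0.77 for *Sgcd* and -0.48 for *Dtna*. The median of all tested genes moves with that scaling. *Dmd* to 2 weeks was -0.078 with upper-quartile factors, -0.060 with a minimum of 10 counts per library, and -0.057 to 0.31 leaving out a library, and *Utrn* from 2 to 7 weeks was -0.12 to 0.13 leaving out a library. With GC trends removed, values to 2 weeks were -0.23 for *Dag1* and -0.081 for *Cav3*, and with length trends removed -0.13 for *Cav3*. The cause of these changes was not tested.

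The number of members called from 2 to 7 weeks was 2 with total-count scaling, with DESeq2, with GC trends removed and with only the 8 libraries compared, and 1 to 3 leaving out a library. From E18.5 to 7 weeks it was 5 with upper-quartile factors and with a minimum of 10 counts per library, and 5 to 8 leaving out a library. Members called for a difference between the intervals numbered 4 with total-count scaling and 3 with GC trends removed, and 1 to 3 leaving out a library. The other genes called from 2 to 7 weeks numbered 11 to 19 leaving out a library. The fall of the *Sgce* to *Sgca* log2 ratio from 2 to 7 weeks passed at -1.21 with GC trends and -0.94 with length trends removed (exact permutation test, p = 0.0286). Of all genes, 1902 rose and 3286 fell from 2 to 7 weeks with upper-quartile factors, and 4759 rose and 8528 fell to 2 weeks with length trends removed.

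Replicate numbers do not mark shared animals. Deviations of same-numbered libraries correlated by -0.31 to 0.58 over 12 pairs, and those of other numbers by -0.54 to 0.42 over 36. A replicate block gave 2 members for the difference between the intervals, adding *Sgcb* (0.81, adjusted p = 0.0232), and changed no other member's call. Leaving out a library (3 against 4) kept the directions of the ratio changes. The exact permutation test was not rerun without a library or with the block.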
